A study of Mus musculus with 36 samples.

Results

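Mesp1, Pdgfra, Smarcd3, Foxf1a and Ets2 are 5 genes linked to the first mesoderm that gives rise to the heart. They were chosen by name, and each matched exactly 1 of the 37561 gene entries in each of the 6 deposited tables. Their RNA was followed from undifferentiated stem cells to day 12 of differentiation, in a control line and in a line lacking the long noncoding RNA LncCPR. In the control embryoid bodies Mesp1 appeared at day 5 and was nearly gone by day 8, and in the knockout it reached 8.15% of the control level at day 5. Pdgfra, Smarcd3 and Foxf1a were also called lower at day 5 in the knockout, and Ets2 was called as changed at none of the 6 days. The Smarcd3 call was lost in some alternative fits. For Foxf1a, lower RNA and reads assigned to an overlapping gene model cannot be told apart.

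The libraries came from AB2.2, a mouse embryonic stem cell line, and from AB2.2 cells in which LncCPR had been deleted. Control and knockout were each sampled at day 0, as stem cells kept undifferentiated with the cytokine LIF, and at days 3, 5, 8, 10 and 12. For these later days LIF was left out and the cells were grown in hanging drops as embryoid bodies, aggregates in which the germ layers form, and whole embryoid bodies were extracted. Each of the 12 groups held 3 libraries, 36 in all. The deletion was made with Cas9 and a pair of guides on either side of the gene, and single cells were sorted and expanded. How many knockout lines stand behind the 18 knockout libraries is not stated, nor whether the control cells had been transfected and sorted, so the deletion and other differences between the lines cannot be told apart. The deleted RNA is not listed under its name, and no check of the labels was made on it. The embryoid bodies were not sorted, and fewer cells of a type and less RNA per cell cannot be told apart in such samples.

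The values are FPKM, fragments scaled by transcript length and by library size, so levels can be compared between genes. A library's FPKM summed to between 294740 and 403675, and 11248 to 13183 genes lay above 1 FPKM. Depth in absolute reads is unknown. A rough relative depth was taken from the most common FPKM ratio to 1 library, among genes seen in a minority of libraries. By this estimate the deepest library was 3.24 times as deep as the shallowest. The value of the shallowest, knockout day 8 replicate 1, rested on 11 of 61 genes compared. The labelled stages were checked on marker genes fixed by cell type. The summed level of 10 pluripotency markers was 2420 to 2570 FPKM at day 0 and 113 to 332 FPKM at day 10. That of 12 cardiomyocyte markers was 13.0 to 25.6 FPKM at day 0 and 195 to 1571 FPKM at day 8. Fold changes below are knockout minus control on the scale log2(FPKM + 1), which understates the change of low genes, and were tested with limma over all genes whose 6 libraries of a day averaged 1 FPKM or higher, the filter on low values. A gene was called when its adjusted p lay under 0.05.

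Mesp1 is a basic helix-loop-helix transcription factor that marks the earliest mesoderm leaving the primitive streak, from which most of the heart descends. T-box factors of the streak and Nodal, Wnt and BMP signals act before it, and it is known to act on genes of heart specification and of the change from epithelium to mesenchyme. Pdgfra is a receptor tyrosine kinase for platelet-derived growth factors and is used with Kdr to mark cardiac mesoderm. Smarcd3, also called Baf60c, is a subunit of the BAF chromatin remodelling complex that favours heart genes. Foxf1a is a forkhead factor of lateral plate and extraembryonic mesoderm that responds to Hedgehog and BMP signals. Ets2 is an ETS factor downstream of FGF and ERK signalling that has been placed near Mesp1 in the specification of heart progenitors.

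The 5 genes lie on 4 chromosomes. In the GRCm38 annotation, looked up by Ensembl gene identifier, Mesp1 (ENSMUSG00000030544.5) spans 79792241 to 79793788 of chromosome 7 on the minus strand, and its paralog Mesp2 lies 16939 bases away. Pdgfra (ENSMUSG00000029231.9) spans 75152292 to 75198215 of chromosome 5 on the plus strand, and Smarcd3 (ENSMUSG00000028949.7) spans 24590818 to 24624411 of the same chromosome on the minus strand. Foxf1a (ENSMUSG00000042812.2), which GRCm38 names Foxf1, spans 121084386 to 121088144 of chromosome 8 on the plus strand. Ets2 (ENSMUSG00000022895.8) spans 95702075 to 95721051 of chromosome 16 on the plus strand. The authors aligned to mm9, so these positions describe the genes and not the aligned reads. Exons of Smarcd3 overlap those of Chpf2 on the other strand, and exons of Pdgfra overlap antisense models. Whether the counting used strand is not stated, so reads of such partners cannot be told apart from those of the gene.

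Promoter sequence is shown for the 3 genes that were called lower at day 5 and that have a window in the RefSeq table, which holds 250 bases before and 50 bases after a gene's start in GRCm38.p6. The table matched 4 of the 5 genes, and Foxf1a was not among them. The Ets2 window began in an annotated exon and is not printed. The lines give bases outside annotated exons, 5′ to 3′ on the gene's strand, in lower case, with E-box letters in capitals, the motif that Mesp1 and other helix-loop-helix factors bind. The Smarcd3 window belongs to a start inside the annotated gene.
Mesp1, chr7:79793789-79793840, minus strand: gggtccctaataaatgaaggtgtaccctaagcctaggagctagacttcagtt
Pdgfra, chr5:75152001-75152250, plus strand: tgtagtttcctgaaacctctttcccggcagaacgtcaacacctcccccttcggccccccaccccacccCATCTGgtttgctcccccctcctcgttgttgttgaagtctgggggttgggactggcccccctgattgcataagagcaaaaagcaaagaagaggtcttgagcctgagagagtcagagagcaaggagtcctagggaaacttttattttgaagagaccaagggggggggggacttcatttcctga
Smarcd3, chr5:24602013-24602252, minus strand: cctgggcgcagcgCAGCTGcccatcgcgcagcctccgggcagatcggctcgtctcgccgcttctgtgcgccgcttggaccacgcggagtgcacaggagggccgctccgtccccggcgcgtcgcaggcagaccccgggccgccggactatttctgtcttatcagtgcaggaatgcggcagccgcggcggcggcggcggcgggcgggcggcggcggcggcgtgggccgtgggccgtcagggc

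A set of 6 motifs was searched on both strands of the 250 bases before each start. The E-box CANNTG was found in the windows of Mesp1 (at -180 and -126, counted from the RefSeq start), Pdgfra (at -182) and Smarcd3 (at -237), and 66.2% of the 32851 windows in the table hold it. The TCF/LEF motif CTTTGA of the Wnt pathway occurred at -72 and -31 in the Mesp1 window, against 13.8% of windows that hold it. The Smad motif CAGACA occurred at -248 in the Ets2 window, against 17.1% of windows. The T-box site GGTGTGA (3.33% of windows), the GATA motif AGATAA (9.99%) and the ETS motif CCGGAA (12.0%) were in none of the 4 windows. The Mesp1 matches lie past the first base that GENCODE annotates as exon and are outside the stretch printed.

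At day 5 the control libraries held Mesp1 at 13.7, 16.9 and 18.1 FPKM and the knockout libraries at 1.06, 1.91 and 1.00 FPKM. The groups lay far apart, and the highest knockout library was below the lowest control library. The means were 16.2 ± 2.23 FPKM in control and 1.32 ± 0.506 FPKM in the knockout (SD, n = 3 libraries each), a log2 fold change of -2.90 (SE 0.16, adjusted p = 1.95e-06, limma with Benjamini-Hochberg adjustment). Before that day Mesp1 was close to absent in both lines. It was listed at 0 in 8 of the 12 libraries of days 0 and 3, and the highest of the other 4 was 0.187 FPKM. At day 5 the share of all 12447 genes tested that was called was 10.4%, and 3.32% were called lower. Of the 5 genes described here 4 were called lower, but they were chosen with this loss known, and Smarcd3 and Foxf1a passed the filter only through the control, so nothing is read from that count.

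After day 5 Mesp1 was low in both lines and lay below the level needed for the test. At day 8 the control libraries held 0.813, 0.425 and 0.673 FPKM and the knockout libraries 0.538, 1.56 and 0.737 FPKM, and the groups overlapped. At day 10 the control libraries held 0.0675, 0.0971 and 0 FPKM and the knockout libraries 0.829, 1.83 and 0.745 FPKM. The 3 knockout libraries of day 10 were thus all above the 3 control libraries, at levels near those of knockout day 5. In a fit with no filter on low values Mesp1 at day 10 was not called (log2 difference 0.98, SE 0.20, limma adjusted p = 0.0667 over 25173 genes). At day 12 the groups overlapped again, with no library above 0.482 FPKM. Ordered by mean, control day 5 stood alone, and every pair of neighbours below it, from knockout day 5 through knockout day 10, knockout day 8 and control day 8 down to knockout day 0, had overlapping libraries.

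**Figure D1:**
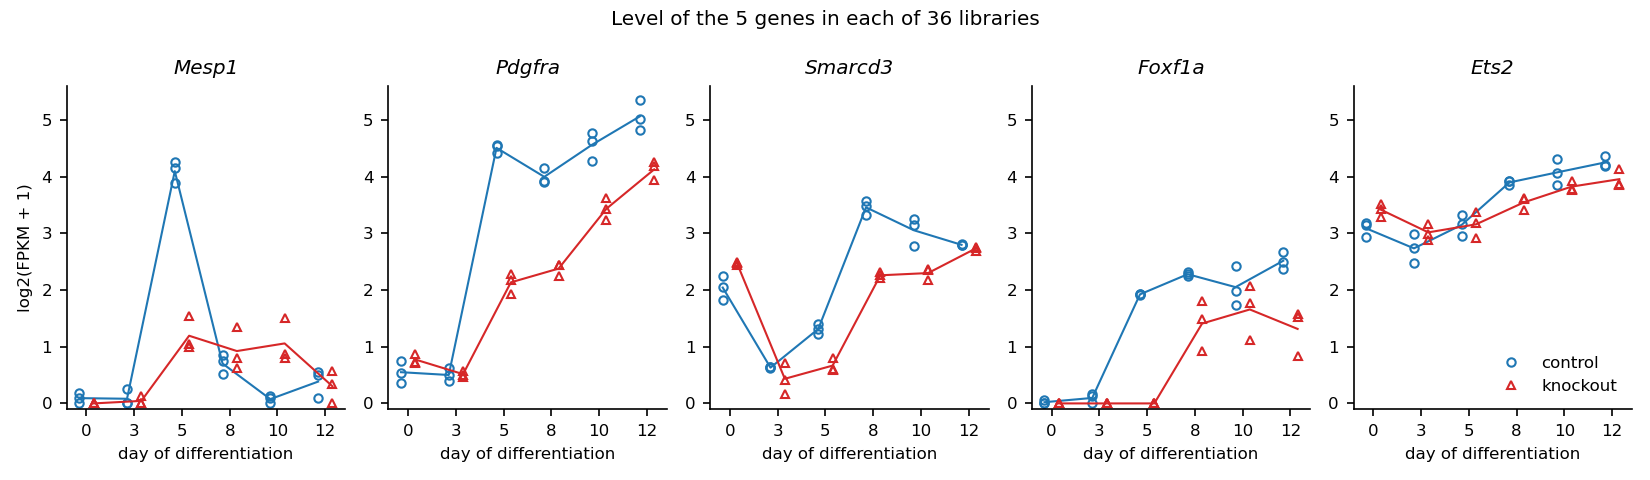
Level of each gene as log2(FPKM + 1) (vertical axis) at each day of differentiation (horizontal axis, days spaced evenly), with control libraries as circles, knockout libraries as triangles and lines through the means of the 3 log values. Mesp1 in the control has a single peak at day 5, with libraries of 13.7 to 18.1 FPKM, while the other 4 genes reach their highest group mean at day 8 or day 12.

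The paralog Mesp2, a segmentation gene next to Mesp1, was low at day 5, at 0.710, 0.298 and 0.566 FPKM in control and 0.0831, 0.0250 and 0.0278 FPKM in the knockout. Its groups did not overlap, and it was below the filter at each of the 6 days, so it was not tested.

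Pdgfra was at 20.4, 22.5 and 22.4 FPKM in the control libraries of day 5 and at 3.53, 2.83 and 3.89 FPKM in the knockout libraries. The knockout mean was 15.7% of the control mean (log2 fold change -2.37, SE 0.12, limma adjusted p = 1.46e-06). Unlike Mesp1, the receptor gene stayed on in the control after day 5, and both lines had their highest level at day 12. At day 8 the control libraries held 16.9, 14.0 and 14.2 FPKM and the knockout libraries 4.45, 3.77 and 4.41 FPKM. At day 10 they held 23.9, 26.3 and 18.5 FPKM in control and 11.4, 8.41 and 9.83 FPKM in the knockout. At day 12 they held 31.4, 39.9 and 27.2 FPKM in control and 18.1, 17.3 and 14.4 FPKM in the knockout. The groups did not overlap at any of these 4 days, and the gene was called lower at each.

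The knockout mean of Pdgfra as a share of the control mean was 28.0% at day 8, 43.2% at day 10 and 50.4% at day 12. The log2 fold changes were -1.62 (SE 0.15, limma adjusted p = 0.000256), -1.13 (SE 0.16, limma adjusted p = 0.000558) and -0.94 (SE 0.15, limma adjusted p = 0.00912). At days 0 and 3 no library exceeded 0.835 FPKM, the groups overlapped, and the gene was not tested. In the order of the group means, control day 12 (32.8 ± 6.45 FPKM) stood above control day 10 and control day 5, whose libraries overlapped. Knockout day 12 (16.6 ± 1.96 FPKM) came next and overlapped control day 8 (15.0 ± 1.61 FPKM). Then followed knockout day 10, and knockout days 8 and 5, which overlapped each other. The tables of different days may have been scaled separately, so these orders are descriptions.

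Of the PDGF family, 3 of 6 genes were tested at day 5, and 1 was called higher and 0 lower. Over all genes tested, 7.07% were called higher and 3.32% lower. The ligand gene Pdgfb, which passed the filter only through the knockout, rose from 0.452 ± 0.0619 to 1.92 ± 0.281 FPKM (log2 fold change 1.01, SE 0.15, limma adjusted p = 0.00164), and Pdgfa, the main ligand of Pdgfra, was at 6.68 ± 0.755 FPKM in control and 7.23 ± 0.234 FPKM in the knockout (limma adjusted p = 0.597). The list's median log2 fold change was 0.10, beside 0.13 over all genes tested. Without knockout replicate 3 of day 5 no gene of the family was called, since Pdgfb then fell below the filter. The paralog Pdgfrb, the second PDGF receptor and a gene of pericytes and other mesenchyme, was at 0.787 to 1.05 FPKM in control and 0.294 to 0.427 FPKM in the knockout at day 5, below the filter. It was called lower at days 8, 10 and 12, with log2 fold changes of -1.10, -0.79 and -0.95 (limma adjusted p = 0.00425, 0.00246 and 0.00371).

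Smarcd3 had a different course, with RNA in the stem cells, a low at day 3 and, in the control, a peak at day 8. At day 0 the control libraries held 3.75, 2.56 and 3.15 FPKM and the knockout libraries 4.45, 4.55 and 4.64 FPKM. The knockout libraries were all higher, but the gene was not called (log2 fold change 0.43, SE 0.13, limma adjusted p = 0.0579). It was called at day 0 without control replicate 1 (0.53, adjusted p = 0.0428) and with the libraries rescaled by their median ratio (0.44, adjusted p = 0.0497). At day 0, 14.5% of all genes tested were called, and 0 of the 2 described here that were tested. At day 3 the levels were 0.544 to 0.552 FPKM in control and 0.126 to 0.647 FPKM in the knockout, below the filter. At that day 1.75% of all genes tested were called, and Ets2, the only one of the 5 genes that was tested, was not.

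At day 5 Smarcd3 was at 1.49, 1.63 and 1.35 FPKM in control and 0.741, 0.528 and 0.505 FPKM in the knockout. It was called lower, at 39.7% of the control mean (log2 fold change -0.65, SE 0.15, limma adjusted p = 0.0181). The mean over the 6 libraries was 1.04 FPKM, and it passed the filter only through the control libraries. The call did not hold with no filter (adjusted p = 0.0616) or without knockout replicate 3 (adjusted p = 0.0519). Without any 1 of the control libraries the gene fell below the filter. With a pseudocount of 0.1 FPKM the log2 fold change was -1.21.

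On the log2(FPKM + 1) scale, which understates the change of low genes, the largest difference in Smarcd3 among the 6 days was at day 8. As shares of the control mean, days 5 and 8 were close, at 39.7% and 37.8%. The control libraries of day 8 held 10.9, 10.2 and 9.05 FPKM and the knockout libraries 3.62, 3.80 and 3.96 FPKM, which was 37.8% of the control mean (log2 fold change -1.20, SE 0.15, limma adjusted p = 0.00159). At day 10 they held 8.49, 7.83 and 5.86 FPKM in control and 4.12, 3.50 and 4.18 FPKM in the knockout (log2 fold change -0.76, SE 0.16, limma adjusted p = 0.0075). By day 12 the levels were close, at 5.91, 5.93 and 6.02 FPKM in control and 5.79, 5.70 and 5.49 FPKM in the knockout. The knockout mean was then 95.0% of the control mean and the gene was not called (log2 fold change -0.06, 95% interval -0.33 to 0.21). In the order of the means, control day 8 stood apart from control day 10, which overlapped control day 12, and knockout day 12 lay just below without overlap.

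Of 24 other genes of the BAF and PBAF complexes 22 were tested at day 5, and 0 were called higher and 1 lower, near the 3.32% called lower over all genes, with a median log2 fold change of 0.028 beside 0.13 over all genes. The one called was Smarca2, an ATPase subunit, which fell from 3.57 ± 0.562 to 1.53 ± 0.624 FPKM (log2 fold change -0.87, SE 0.18, limma adjusted p = 0.0125), and its call was lost without control replicate 3 (adjusted p = 0.0524) and with no filter (adjusted p = 0.115). At day 8 Smarca2 was at 9.42 ± 0.878 FPKM in control libraries and 3.64 ± 0.913 FPKM in knockout libraries and was the 1 of 23 tested that was called lower (log2 fold change -1.19, SE 0.18, limma adjusted p = 0.00687). The share of all genes tested that was called lower at day 8 was 2.00%, so nothing is read from that count. Dpf3, a subunit of heart and muscle BAF named here after its values were seen, was below the filter at day 5, at 1.10 to 1.25 FPKM in control libraries and 0.00148 to 0.347 FPKM in knockout libraries, and was called only with no filter (adjusted p = 0.0413). The alternative ATPase Smarca4 was at 63.1 ± 6.45 FPKM in control and 66.3 ± 4.17 FPKM in the knockout, and Pbrm1, a subunit of PBAF, at 59.3 ± 7.97 and 51.1 ± 2.82 FPKM. The paralogs Smarcd1 and Smarcd2, which take the same place in the complex, were at 26.0 ± 2.28 and 28.6 ± 1.20 FPKM in control and 26.1 ± 1.17 and 26.1 ± 4.59 FPKM in the knockout, and neither was called at any of the 6 days.

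Foxf1a was at 2.77, 2.82 and 2.80 FPKM in the control libraries of day 5 and was listed at 0 in the 3 knockout libraries. It was also listed at 0 in the knockout libraries of days 0 and 3, where no control library exceeded 0.121 FPKM. The difference at day 5 was called (limma adjusted p = 1.32e-05), with a mean over the 6 libraries of 1.40 FPKM that passed the filter only through the control. No fold is given, since an FPKM of 0 can also be a failed estimate. The gene lies within an intron of Gm20388, a read-through gene model on the same strand with no shared exon in the GRCm38 annotation. At day 5 Gm20388 was at 1.70, 2.62 and 0.536 FPKM in control and 3.67, 8.49 and 0.979 FPKM in the knockout, overlapping groups (limma adjusted p = 0.264). The FPKM of Foxf1a and Gm20388 added together was 4.47, 5.45 and 3.33 in the control libraries and 3.67, 8.49 and 0.979 in the knockout libraries. The summed levels overlapped, with means of 4.42 FPKM in control libraries and 4.38 FPKM in knockout libraries. A sum of FPKM of models of unequal length is not a count of reads, and lower Foxf1a RNA and reads assigned to the other model cannot be told apart here.

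Foxf1a was present in the knockout from day 8 on. The control libraries of day 8 held 3.86, 3.96 and 3.75 FPKM and the knockout libraries 1.81, 0.899 and 2.51 FPKM. The groups lay apart, but the gene was not called (log2 fold change -0.87, SE 0.23, limma adjusted p = 0.0756), except without knockout replicate 3 (adjusted p = 0.0309). At day 10 the groups overlapped, at 2.34, 4.38 and 2.96 FPKM in control and 3.19, 1.18 and 2.43 FPKM in the knockout. At day 12 the control libraries held 5.40, 4.18 and 4.66 FPKM and the knockout libraries 1.87, 2.00 and 0.784 FPKM. The gene was called lower at that day, at 32.7% of the control mean (log2 fold change -1.20, SE 0.22, limma adjusted p = 0.0149). The call was lost without control replicate 1 (adjusted p = 0.0544) and with no filter (adjusted p = 0.102). Among the group means the control days 8, 10 and 5 formed a run of overlapping neighbours that went on through the knockout days 10, 8 and 12. The paralog Foxf2 had group means of no more than 0.0846 FPKM at days 0, 3 and 5, and was not called at days 8, 10 and 12.

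The Hedgehog and lateral plate lists hold genes that act around Foxf1a. At day 5, 3.32% of all genes tested were called lower. Of 14 Hedgehog pathway genes 9 were tested at that day, and 0 were called higher and 2 lower, with a median log2 fold change of -0.20. Those called were Gas1, a coreceptor, which fell from 6.29 ± 0.847 to 2.40 ± 0.702 FPKM (log2 fold change -1.12, SE 0.17, limma adjusted p = 0.00207), and Ptch1, the receptor and a target of the pathway, which fell from 27.9 ± 3.60 to 17.2 ± 1.42 FPKM. In the fit over all 36 libraries 4 genes of this list were called lower at day 5, and with no filter 1 was, the ligand gene Shh (adjusted p = 0.0393), while Gas1 and Ptch1 were not (adjusted p = 0.0547 each). Of 12 genes of lateral plate and extraembryonic mesoderm 5 were tested, and 0 were called higher and 3 lower, with a median of -1.10. Tbx3 passed the filter only through the control. The T-box gene Tbx3 fell from 4.64 ± 0.269 to 0.920 ± 0.0980 FPKM, the ligand gene Bmp4 from 4.12 ± 0.250 to 1.24 ± 0.489 FPKM and the homeobox gene Irx3 from 3.27 ± 0.209 to 1.01 ± 0.397 FPKM.

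Ets2 was present in each of the 36 libraries and was called at none of the 6 days, except at day 10 with the libraries rescaled by their median ratio (log2 fold change -0.43, limma adjusted p = 0.0154). At day 5 the control libraries held 6.71, 9.07 and 8.01 FPKM and the knockout libraries 6.52, 8.10 and 9.43 FPKM, and the groups overlapped. The log2 fold change was 0.0090 (95% interval -0.32 to 0.33, limma adjusted p = 0.977), and it was -0.11 with the libraries rescaled by their median ratio. At day 0 the knockout libraries, at 9.84, 10.5 and 8.83 FPKM, were above the control libraries, at 8.08, 6.62 and 7.88 FPKM (log2 fold change 0.33, limma adjusted p = 0.0701). At day 8 they were below, at 9.62, 11.4 and 11.1 FPKM against 14.2, 14.2 and 13.4 FPKM (log2 fold change -0.35, limma adjusted p = 0.206). Levels rose over time in both lines, to 17.1, 17.4 and 19.7 FPKM in control and 16.7, 13.6 and 13.5 FPKM in the knockout at day 12. Nearly all neighbours in the order of its means overlapped, the exception being knockout day 10 above knockout day 8.

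At day 5, 7.07% of all genes tested were called higher and 3.32% lower. Of 20 other ETS family genes 16 were tested at that day, and 1 was called higher and 2 lower, with a median log2 fold change of -0.083. The epithelial factor Elf3 fell from 20.6 ± 3.64 to 9.83 ± 1.19 FPKM and Elf1 from 12.7 ± 1.59 to 7.53 ± 0.954 FPKM. Etv2, a regulator of blood and endothelial progenitors, rose from 1.44 ± 0.394 to 2.91 ± 0.181 FPKM (log2 fold change 0.69, SE 0.15, limma adjusted p = 0.0155), a call lost without control replicate 1 (adjusted p = 0.0543). With no filter Elf3 alone was called in this list, and Etv2 and Elf1 were not (adjusted p = 0.104 and 0.0668). With the libraries rescaled, 4 were called lower. The paralog Ets1 was at 4.89 ± 0.197 FPKM in control and 3.67 ± 0.502 FPKM in the knockout (limma adjusted p = 0.107). Of 11 FGF and ERK feedback genes, which report on the signal upstream of Ets2, 11 were tested and 2 were called higher and 0 lower. The phosphatase gene Dusp6 rose from 30.8 ± 5.71 to 71.9 ± 3.62 FPKM (log2 fold change 1.21, SE 0.14, limma adjusted p = 0.000343), and Spry4 from 5.48 ± 0.923 to 8.56 ± 0.588 FPKM. The Spry4 call was lost without control replicate 1 or 2, or knockout replicate 3 (adjusted p = 0.0681, 0.0523 and 0.058), and with no filter (adjusted p = 0.0931), leaving 1 gene called higher. Leaving out control replicate 1 added 1 gene called lower in this list and left 0 ETS genes called higher.

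**Figure D2:**
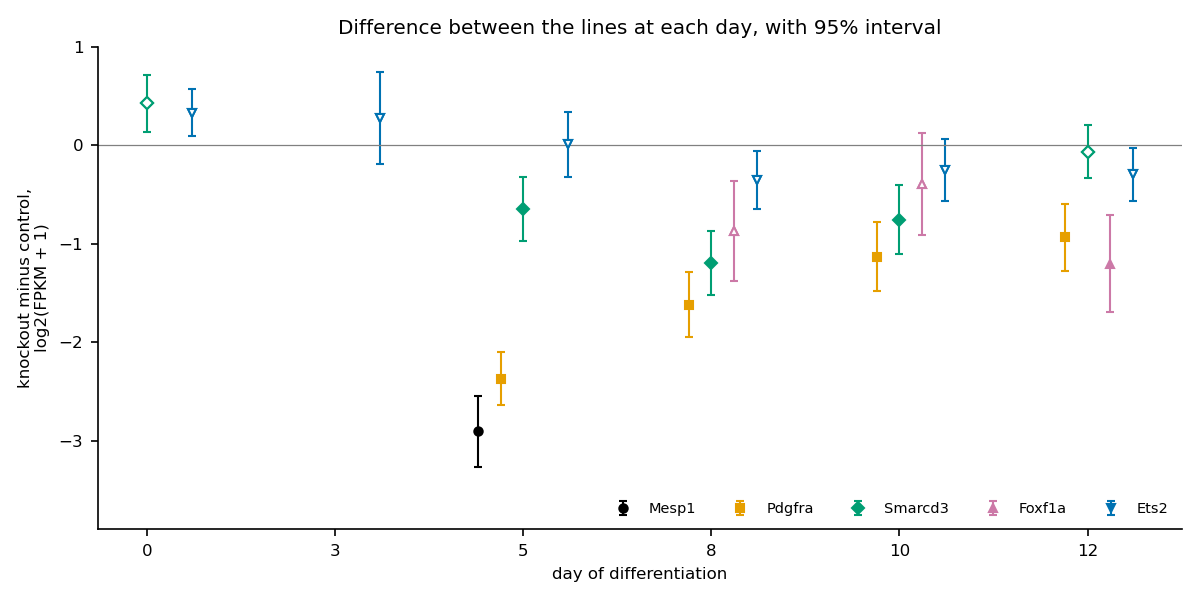
Knockout minus control on the log2(FPKM + 1) scale (vertical axis) at each day of differentiation (horizontal axis), with 95% intervals; filled symbols are called and open symbols are not. Mesp1 at day 5 is lowest at -2.90, Pdgfra moves from -2.37 at day 5 to -0.94 at day 12, Ets2 stays between -0.35 and 0.33, and Foxf1a at day 5 has no point because the knockout is listed at 0.

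Over all genes tested, 3.28% were called at day 8 (2.00% lower and 1.28% higher), 20.2% at day 10 (5.12% lower and 15.0% higher) and 6.71% at day 12 (3.48% lower). Of the 5 genes 2 were called lower at each of these days, Pdgfra and Smarcd3 at days 8 and 10, and Pdgfra and Foxf1a at day 12. With no filter, the call of Pdgfra at day 12 (adjusted p = 0.0731) and that of Smarcd3 at day 10 (adjusted p = 0.0668) were lost.

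Whether the knockout effect differed between days was tested in 1 limma fit over the 36 libraries. The F test over the 6 days called 18.1% of 14459 genes, and it called 5 of the 5 genes here, with adjusted p = 7.85e-11 for Mesp1, 1.71e-10 for Pdgfra, 6.71e-07 for Smarcd3, 2.65e-05 for Foxf1a and 0.0193 for Ets2. The effect at day 8 minus that at day 5 was called in 3.62% of genes and in 3 of these 5. The 5 genes were chosen with the loss at day 5 known, and day 5 values enter both tests, so nothing is read from these counts. Mesp1 passed the filter of this fit through day 5 alone, and its means at day 8 were under 1 FPKM in both lines. For Mesp1 the difference was 3.12 (SE 0.26, 95% interval 2.59 to 3.66, limma adjusted p = 2.25e-09), the effect being -2.90 at day 5 and 0.22 at day 8. For Pdgfra it was 0.75 (SE 0.20, 95% interval 0.34 to 1.17, adjusted p = 0.0283). Foxf1a, whose day 5 effect rests on knockout values of 0, was also called (adjusted p = 0.0282). For Foxf1a, reads assigned to Gm20388 at days 5 and 8 cannot be told apart from lower RNA. For Smarcd3 the difference had the other sign, at -0.55 (95% interval -0.92 to -0.18), and was not called (adjusted p = 0.102), except with the libraries rescaled (-0.57, adjusted p = 0.0324), and for Ets2 it was -0.36 (95% interval -0.76 to 0.036, adjusted p = 0.552). As a share of the control mean, Smarcd3 in the knockout was nearly the same at both days, at 39.7% and 37.8%.

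The Pdgfra and Foxf1a differences between days 5 and 8 were less firm than that of Mesp1. The Pdgfra call was lost with a pseudocount of 0.1 FPKM (adjusted p = 0.177) and without control replicate 2 or 3 or knockout replicate 2 of day 5, or control replicate 2 or 3 or knockout replicate 1 or 3 of day 8, with adjusted p from 0.0626 to 0.108. The Foxf1a call was lost with no filter (adjusted p = 0.0661), with the replicate number as a block (adjusted p = 0.104) and for 11 of the 12 libraries of days 5 and 8 when each was left out in turn, with adjusted p from 0.0527 to 0.116.

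Genes that act before Mesp1 in the streak did not fall as a group at day 5. Of 12 streak genes and signals 10 were tested, and 3 were called higher and 2 lower, with a median log2 fold change of 0.065. The share of all genes called higher at that day was 7.07%, and that called lower was 3.32%. The T-box factor T, the defining gene of the streak, was at 50.6, 81.2 and 60.7 FPKM in control and 116, 133 and 127 FPKM in the knockout (log2 fold change 0.98, SE 0.16, limma adjusted p = 0.0036). The organiser gene Gsc rose from 10.4 ± 2.96 to 20.8 ± 1.01 FPKM, and the ligand gene Nodal from 8.92 ± 2.11 to 15.4 ± 2.05 FPKM. Eomes, a T-box factor known to act on Mesp1, was chosen after its values were seen: it was at 70.7 ± 11.2 FPKM in control and 70.2 ± 0.677 FPKM in the knockout (limma adjusted p = 0.992). Bmp4 and the LIM homeobox gene Lhx1 were the 2 called lower. With no filter none of the 3 higher calls held (adjusted p = 0.0628 for T, 0.0822 for Gsc and 0.108 for Nodal), and the 2 called lower were Bmp4 and Tbx6. The Nodal call was lost without control replicate 1 or 3 (adjusted p = 0.0617 and 0.0557). The Lhx1 call was lost with no filter (adjusted p = 0.104), and without control replicate 2 or 3, or knockout replicate 1 or 3 (adjusted p from 0.0702 to 0.0901), and in 3 of these 4 fits 1 gene of the list was called lower.

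Genes known to act with or after Mesp1 in the early heart were mostly lower. Of 16 such regulators 12 were tested at day 5, and 0 were called higher and 11 lower, with a median log2 fold change of -1.40 beside 0.13 over all genes. The share of all genes tested that was called lower was 3.32%. Of the 11, 7 (Hand1, Hand2, Tbx20, Isl1, Foxc1, Foxc2 and Snai1) had a knockout mean under 1 FPKM and passed the filter only through the control, so the count and the median are in part set by the filter. Without control replicate 2 or 3 the count was 7, and with no filter Gata6 and Dkk1 were not called (adjusted p = 0.167 and 0.152). Hand1, a helix-loop-helix factor of the heart tube and extraembryonic mesoderm, was at 10.3, 9.05 and 10.0 FPKM in control and 0.664, 0.262 and 0.380 FPKM in the knockout (log2 fold change -2.92, SE 0.14, limma adjusted p = 1.04e-06). Its relative Hand2 fell from 5.96 ± 0.885 to 0.0983 ± 0.0635 FPKM, the T-box factor Tbx20 from 4.57 ± 0.237 to 0.596 ± 0.156 FPKM and the zinc finger factor Gata4 from 12.3 ± 1.43 to 3.41 ± 0.537 FPKM. At day 8, 16 of the list were tested and 8 were called lower and 0 higher, with a median of -0.68. Over all genes tested, 2.00% were called lower at day 8. Hand1 was then at 40.2 ± 8.92 FPKM in control and 11.2 ± 4.23 FPKM in the knockout, higher than at day 5 in both lines, and it was again called lower (log2 fold change -1.80, SE 0.26, limma adjusted p = 0.00501).

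Of 10 receptors and adhesion genes of early mesoderm 7 were tested at day 5, and 0 were called higher and 4 lower, with a median of -0.63. The share of all genes tested that was called lower at that day was 3.32%. Kdr, the VEGF receptor that marks early mesoderm together with Pdgfra, was at 19.0, 17.2 and 21.8 FPKM in control and 0.875, 0.893 and 1.01 FPKM in the knockout (log2 fold change -3.39, SE 0.12, limma adjusted p = 9.88e-08). The chemokine receptor Cxcr4 fell from 40.1 ± 5.88 to 12.0 ± 1.19 FPKM and the apelin receptor Aplnr from 26.4 ± 2.53 to 9.76 ± 0.0945 FPKM. N-cadherin, Cdh2, fell from 44.8 ± 5.88 to 28.5 ± 3.27 FPKM, a call lost with no filter (adjusted p = 0.077). Kdr passed the filter only through the control. Members of these 2 lists that were called at day 5 had all 3 control libraries above all 3 knockout libraries. They were called on these same libraries, so the separation is a description and no further evidence.

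**Figure D3:**
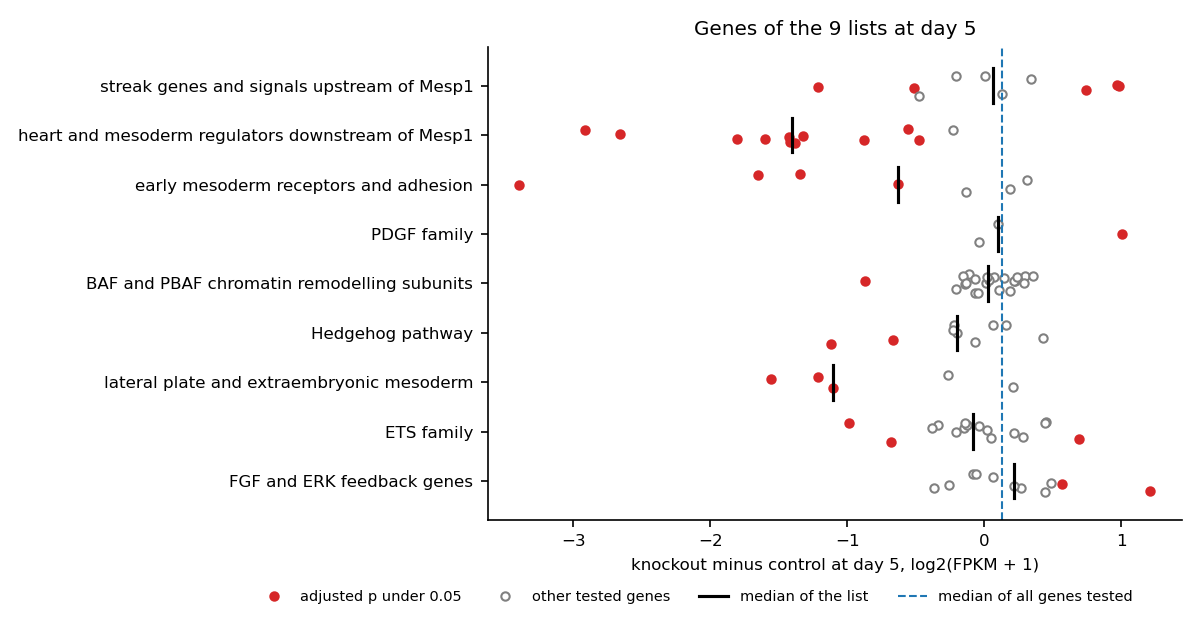
Knockout minus control at day 5 on the log2(FPKM + 1) scale (horizontal axis) for the tested genes of 9 lists (vertical axis); filled points have an adjusted p under 0.05, bars are list medians and the dashed line is the median of all genes tested. The list of heart regulators has its median at -1.40 and that of BAF subunits at 0.028, and the streak list holds called genes on both sides.

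The scale of the libraries matters for small differences at day 5. With the libraries rescaled by their median ratio, the median log2 fold change of all genes moved from 0.13 to 0.0041, and the calls went from 880 higher and 413 lower to 650 higher and 860 lower. The medians of the streak, PDGF and BAF lists then turned negative, to -0.069, -0.019 and -0.098, as did the log2 fold changes of Pdgfa (-0.019) and Smarca4 (-0.0640). The medians of the heart regulator, receptor and lateral plate lists moved to -1.47, -0.77 and -1.19, and Mesp1, Pdgfra, Smarcd3 and Foxf1a were called lower on both scales.

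Markers of other cell types moved at day 5 as well. Over all genes tested, 7.07% were called higher and 3.32% lower at that day. Of 9 paraxial mesoderm markers 4 were tested and 3 were called lower, and their summed level was 20.2 to 26.3 FPKM in control and 5.29 to 8.22 FPKM in the knockout. Msgn1 and Dll1, with knockout means of 0.578 and 0.965 FPKM, passed the filter only through the control. The count of paraxial markers called lower is thus in part set by the filter. Of 10 pluripotency markers 9 were tested and 4 were called higher, with a sum of 570 to 749 FPKM in control and 1059 to 1194 FPKM in the knockout. Of 12 markers of smooth muscle and fibroblasts 5 were tested and 4 were called higher, with a sum of 35.6 to 41.0 FPKM in control and 77.3 to 98.8 FPKM in the knockout. Those called were Acta2, Tagln, Cnn1 and Myl9, and Tagln gave most of the knockout sum, at 48.4 to 71.0 FPKM. Col1a1, Col1a2, Col3a1, Dcn, Lum and Postn lay below the filter, and all but Dcn had a lower mean in the knockout. Among 5 definitive endoderm markers 2 were called higher and 2 lower, with sums of 132 to 185 and 197 to 204 FPKM. For 10 visceral endoderm markers, 5 of them tested and 1 called higher, the sums were 15.8 to 23.8 and 20.7 to 29.7 FPKM.

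Among 12 cardiomyocyte markers 4 were tested at day 5, 2 called higher and 2 lower, with sums of 18.6 to 20.6 FPKM in control and 16.3 to 18.1 FPKM in the knockout. Of those called lower, Myl7 passed the filter only through the control, at 4.70 FPKM in control and 0.697 FPKM in the knockout. Of 8 neural markers 1 was tested and called higher, Nes, which gave most of the sum of 14.0 to 15.4 and 33.3 to 41.4 FPKM, and Neurog2 was listed at 0 in the 6 libraries. Endothelial markers, with 2 of 7 tested and 0 called, had sums of 16.7 to 21.4 and 19.6 to 28.7 FPKM. Blood markers were near 0, with sums of no more than 1.99 FPKM and none of 7 tested. The part of these cell types in the differences of the 5 genes was not tested.

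At day 8, beside the lower Pdgfra and Smarcd3, 10 of 10 tested cardiomyocyte markers were called lower, with sums of 1259 to 1571 FPKM in control and 195 to 282 FPKM in the knockout. Of 7 endothelial markers 3 were called lower (76.4 to 82.3 against 50.8 to 58.9 FPKM), and of 10 pluripotency markers 4 were called higher (202 to 224 against 291 to 378 FPKM). Blood markers, of which 3 were tested and 2 called lower, had sums of 33.2 to 38.8 and 7.50 to 8.41 FPKM. Of those called lower, Hba-x passed the filter only through the control, at 14.4 FPKM in control and 0.567 FPKM in the knockout. At day 10, beside the lower Pdgfra and Smarcd3, 11 of 11 tested cardiomyocyte markers were called lower (1322 to 1365 FPKM in control libraries, 283 to 437 FPKM in knockout libraries). So were 8 of 10 tested markers of smooth muscle and fibroblasts (892 to 1312 against 610 to 749 FPKM), 7 of 10 of visceral endoderm (608 to 1019 against 319 to 364 FPKM) and 4 of 7 of endothelium (50.4 to 71.7 against 39.0 to 46.1 FPKM), while 9 of 10 pluripotency markers were called higher. At day 12, beside the lower Pdgfra and Foxf1a, 7 of 11 tested smooth muscle and fibroblast markers were called lower (1257 to 1443 against 926 to 1104 FPKM), and 11 of 12 cardiomyocyte markers. Over all genes tested, 2.00% were called lower at day 8, 5.12% at day 10 and 3.48% at day 12. At day 8, 1.28% were called higher, and at day 10 15.0% were. The part of these markers in the results was not tested either.

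The 5 genes did not share 1 profile. Over the 12 group means on the log2(FPKM + 1) scale, Pdgfra and Foxf1a had a Pearson correlation of 0.93, Smarcd3 and Ets2 of 0.86, and Foxf1a and Ets2 and Pdgfra and Ets2 each of 0.80. Mesp1 correlated at 0.40 with Pdgfra, 0.33 with Foxf1a, -0.15 with Ets2 and -0.20 with Smarcd3. These points share their libraries and the course of differentiation, so the values are descriptions.

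The genes most like Mesp1 were sought among 10555 genes with a group mean of at least 5 FPKM, by the same correlation. They were Dll3, a Notch ligand of the forming somites (0.91), Smad1, a transducer of BMP signals (0.89), the raft protein gene Rftn1 (0.86), the growth factor gene Fgf3 (0.86), the phosphatase gene Cdc14b (0.85) and Lhx1 (0.85). All had their highest group mean in the control at day 5. Dll3 was at 10.6 ± 2.24 FPKM there and 4.07 ± 1.20 FPKM in the knockout, Fgf3 at 5.08 ± 0.424 and 0.629 ± 0.145 FPKM, and Rftn1 at 18.8 ± 2.05 and 7.95 ± 0.345 FPKM. Cdc14b was at 14.2 ± 1.83 and 12.8 ± 1.40 FPKM. The levels of both lines at day 5 entered the choice of these genes, so their differences are descriptions with no test. By Spearman correlation 0 of the 6 were among the 6 most alike, and over the 36 single libraries 4 were.

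**Figure D4:**
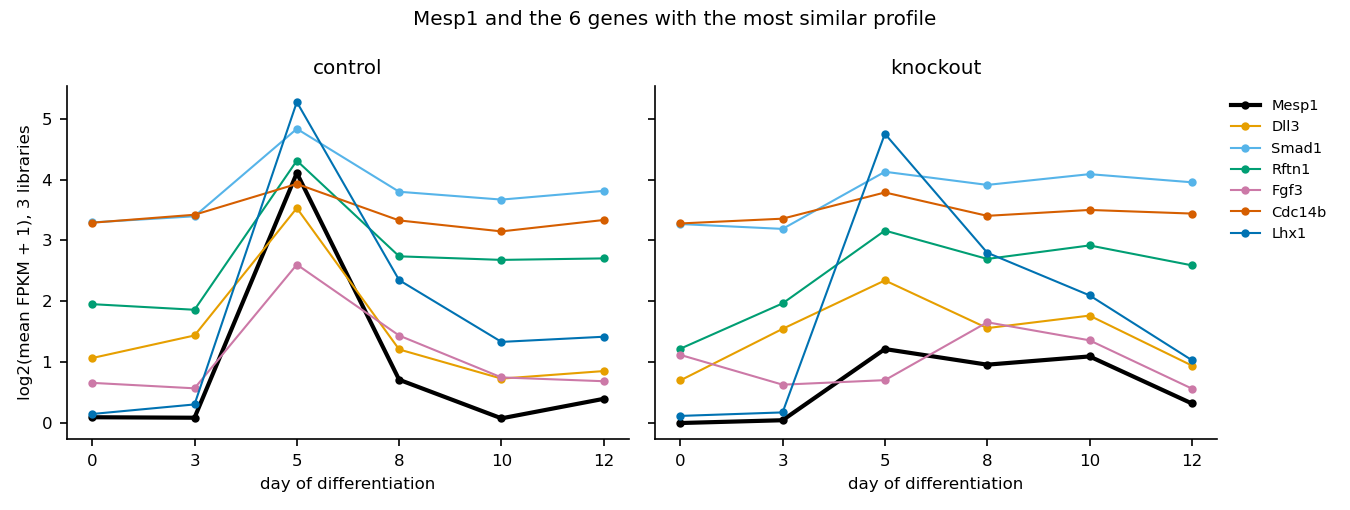
Group means of 3 libraries as log2(mean FPKM + 1) (vertical axis) at each day (horizontal axis) for Mesp1 (thick line) and the 6 genes with the most similar profile, control on the left and knockout on the right. The 7 lines peak at day 5 in the control, where Mesp1 has a mean of 16.2 FPKM, and Mesp1 stays at or below 1.32 FPKM in the knockout means.

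For the other members the likeness was to genes that stay on after day 5. Pdgfra was most like Adamts10, Chst2 and the cadherin gene Cdh11 of mesenchyme (0.98, 0.97 and 0.97). Smarcd3 was most like Ypel2, Bmp4 and Zeb1, a repressor of epithelial genes (0.97, 0.96 and 0.96), and Foxf1a was most like Sh3bp4, Rgs5 and the fibronectin gene Fn1 (0.98, 0.97 and 0.97). At day 5 Cdh11 was at 12.1 ± 1.29 FPKM in control libraries and 5.23 ± 0.686 FPKM in knockout libraries, Zeb1 at 4.73 ± 0.281 and 1.40 ± 0.333 FPKM and Fn1 at 143 ± 12.6 and 30.8 ± 3.64 FPKM. Ets2 was most like Ttc28, Bicd2 and Gnb4 (0.99, 0.98 and 0.97). By Spearman correlation 0 of the 3 genes named for each of these members were among its 3 most alike. Over the 36 single libraries 2, 3, 2 and 1 were, for Pdgfra, Smarcd3, Foxf1a and Ets2. Levels at day 5 entered the choice of these genes, so their differences are descriptions with no test.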

How the data were processed

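RNA of 36 libraries was measured by RNA-seq, with 6 deposited tables of 37561 entries, 1 per day. The authors deposited FPKM values made with TopHat and Cufflinks on mm9, per the submitters' processing notes, and versions are not given in the sources used here. FPKM carries no read counts, so no count test was used. Values were tested as log2(FPKM + 1) with limma 3.58.1 in R 4.3.3 (trended eBayes, Benjamini-Hochberg adjustment, called under 0.05), day by day, for genes with a day's mean of at least 1 FPKM; a fit over 36 libraries tested differences between days. The 5 genes and the lists were chosen with earlier results of these data known, so list counts are descriptions. Named genes were the 5, their paralogs, the most similar profiles and up to 4 called genes per list with the largest change (the 2 most abundant where fewer than 2 were called). Where replicates came from is not stated, so p-values measure only the spread between libraries; 3 against 3 allows an exact p no lower than 0.1. Replicates correlated at 0.983 to 0.994 across genes. Same-numbered libraries showed no clear pairing: deviations correlated at -0.122 to 0.273, and on no day did every pair exceed 0.1. At day 5 these pairs lay at 0.0606 to 0.207 and the other combinations at -0.171 to 0.0998, so pairing at that day is unsettled. Alternatives were another pseudocount (0.1 FPKM), no filter, rescaled libraries, no variance trend, a replicate block, a joint fit and leaving out each library. Scripts were tested on simulated data. Figures used matplotlib 3.10.9.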

Additional observations from a re-analysis of the deposited data

Results flagged for a closer look

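The knockout effect differed between days for each of the 5 genes by the F test over the 6 days in limma, with an adjusted p of 7.85e-11 for Mesp1, 1.71e-10 for Pdgfra, 6.71e-07 for Smarcd3, 2.65e-05 for Foxf1a and 0.0193 for Ets2. Between day 5 and day 8 the effect, as a difference of log2(FPKM + 1), moved by 3.12 for Mesp1, 0.75 for Pdgfra and 1.05 for Foxf1a, whose knockout libraries of day 5 are listed at 0. Reads of Foxf1a assigned to the overlapping model Gm20388 cannot be told apart from lower RNA at either day. The Pdgfra and Foxf1a calls between these days were lost when some single libraries were left out, and that of Mesp1 was kept in each fit made. The 5 genes were chosen with the loss at day 5 known, and day 5 values enter these tests, so the results are descriptions.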

How the results depend on the processing

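Of the 5 genes, 4 were called at day 5 and 2 at day 8, and over the alternatives run these counts were 3 to 4 and 2 to 3. At day 0 the count was 0, and 1 with the libraries rescaled by their median ratio, and leaving out single libraries gave 0 to 1. With no filter on low values it was 1 at day 10 and 0 at day 12, where leaving out single libraries gave 1 to 2. The count whose effect differed between days 5 and 8 was 3, and 1 to 3 when single libraries were left out. With the replicate block, which treats same-numbered libraries as paired, the counts were 4 at day 5, 2 at day 8, 4 by the F test over days and 2 between days 5 and 8. Calls over all genes at day 5 were 894 higher and 406 lower with the block, and 208 higher and 216 lower with no filter; rescaling gave 1226 higher and 1480 lower at day 10 and 342 higher and 650 lower at day 12. Small log2 fold changes of day 5 turned: Ets2 to -0.11, Pdgfa to -0.019 and Smarca4 to -0.064 with rescaling. Leaving out single libraries gave -0.10 to 0.13 for Ets2, -0.23 to 0.015 for Ttc28 and -0.10 to 0.021 for Bicd2. The cause of these changes was not tested. Depth in reads is unknown, which limits what can be said of values near 0.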

Other observations

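At day 10, when the 3 knockout libraries held 0.745 to 1.83 FPKM of Mesp1 and the control libraries no more than 0.0971 FPKM, 5 of the 8 tested streak genes and signals were called higher in the knockout and 0 lower, with a median log2 fold change of 0.84 beside 0.17 over all genes tested. Over all genes 15.0% were called higher and 5.12% lower at that day. The list counts of day 10 were not repeated with the libraries rescaled, which moved the calls over all genes to 1226 higher and 1480 lower. Which streak genes passed the filter only through the knockout was not worked out at day 10. Of 10 pluripotency markers 9 were called higher as well, with summed levels of 113 to 154 FPKM in control libraries and 294 to 332 FPKM in knockout libraries. Among the early heart regulators 0 of 15 were called higher and 8 lower at the same day. Whether these levels go together in the same cells was not tested.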
